A study of Mus musculus with 17 samples.

Results

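The genes described here are 10 genes that mark hepatocytes around the central vein of the liver lobule and are known to depend on Wnt signalling: Glul, Oat, Rhbg, Slc1a2, Slc1a4, Axin2, Rnf43, Tbx3, Lect2 and Cyp1a2. They were chosen by symbol and found by Ensembl identifier. Of the 10 genes, 9 matched a row of the 23461 genes measured, and all 9 were among the 13721 genes tested. Rhbg, an ammonium transporter, was not matched by identifier and is not analysed here.

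RNA was sequenced from hepatocytes sorted by FACS from male mice aged 2 to 3 months. The Yap/Taz KO CCl4 group (3 libraries) came from mice with a Yap/Taz knockout given carbon tetrachloride (CCl4), a solvent that pericentral cytochrome P450 enzymes convert to a toxic radical. The WT CCl4 group (5 libraries) came from wildtype mice given the same course, which was 7 doses of 1 ug/g spaced 3 days apart, with cells taken 3 days after the last. The Yap/Taz KO untreated group (4 libraries) and the WT untreated group (5 libraries) had no CCl4. How the knockout was made, and in which cells, is not given in the sources used here, nor is a vehicle injection or whether each library came from its own animal. Reported p-values therefore measure the spread between libraries, which may in part be technical.

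Endothelial cells of the central vein release Wnt ligands and R-spondins, which keep beta-catenin active in the nearest hepatocytes. There beta-catenin, with TCF/LEF factors on DNA, switches on enzymes of glutamine synthesis and drug metabolism, while hepatocytes near the portal vein make urea and glucose. Axin2 and Rnf43 are themselves switched on by the pathway and damp it, so their RNA is widely read as a gauge of its activity. YAP and TAZ (genes Yap1 and Wwtr1) are coactivators held back by the Hippo kinases.

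The targeted genes were low in every knockout library: Yap1 ran from 0.536 to 8.04 CPM (counts scaled to TMM-adjusted library totals) in the 7 knockout libraries and from 37.4 to 73.6 CPM in the 10 WT libraries. Wwtr1 ran from 1.20 to 7.09 CPM in knockout and from 9.86 to 23.4 CPM in WT libraries. Totals ran from 11266420 to 24775863 counts. Mitochondrially encoded genes took 34.3% of counts in Yap/Taz KO CCl4 replicate 3 and 30.7% in WT untreated replicate 5. The summed level of 10 hepatocyte markers was 113759 to 186277 CPM in Yap/Taz KO CCl4, 141203 to 161831 CPM in WT CCl4, 123712 to 147065 CPM in Yap/Taz KO untreated and 84868 to 143775 CPM in WT untreated libraries, with none of the 10 at 0. Markers of macrophages, endothelial cells and stellate cells had higher sums in all 3 Yap/Taz KO CCl4 libraries than in any untreated library; lymphocyte and neutrophil markers were low in most libraries. The sum of 18 macrophage markers was 194, 533 and 4812 CPM in Yap/Taz KO CCl4 replicates 1 to 3, against 61.5 to 168 CPM in WT CCl4, 25.0 to 64.7 CPM in Yap/Taz KO untreated and 19.9 to 70.8 CPM in WT untreated libraries. The sum of 18 endothelial markers was 190 to 1075 CPM in Yap/Taz KO CCl4, 60.7 to 292 CPM in WT CCl4, 26.2 to 51.6 CPM in Yap/Taz KO untreated and 13.9 to 61.1 CPM in WT untreated libraries. For 17 stellate cell and myofibroblast markers it was 105 to 269 CPM in Yap/Taz KO CCl4, 22.3 to 105 CPM in WT CCl4, 7.45 to 11.1 CPM in Yap/Taz KO untreated and 5.33 to 22.5 CPM in WT untreated libraries. No macrophage or endothelial marker was at 0 in any group, whereas Acta2 and Timp1 were at 0 in both untreated groups and Pdgfrb and Hand2 in Yap/Taz KO untreated. The 11 cholangiocyte markers summed to 86.4 to 103 CPM in Yap/Taz KO CCl4, 56.0 to 92.4 CPM in WT CCl4, 40.9 to 75.2 CPM in Yap/Taz KO untreated, where Krt19 and Cftr were at 0, and 20.3 to 51.8 CPM in WT untreated libraries. The 12 lymphocyte markers summed to 1.16 to 10.2 CPM in Yap/Taz KO CCl4, 0.709 to 3.71 CPM in WT CCl4, 1.26 to 5.02 CPM in Yap/Taz KO untreated and 0.764 to 6.07 CPM in WT untreated libraries, ranges that overlapped. The 7 neutrophil markers in the table summed to 1.97 to 28.3 CPM in Yap/Taz KO CCl4, 0.872 to 1.56 CPM in WT CCl4, 1.08 to 1.74 CPM in Yap/Taz KO untreated and 0.573 to 2.02 CPM in WT untreated libraries. Of these, Trbc2 was at 0 in all groups but Yap/Taz KO CCl4, as was Retnlg.

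The 250 bases before the RefSeq start site (GRCm38.p6) were read for the 8 members with an entry; Tbx3 and Rhbg had none. The TCF/LEF core letters CTTTGA, searched on both strands, were found in 3 of the 8 members, Slc1a2, Lect2 and Cyp1a2, against 13.8% of 32851 promoters of that length. They were not found in this window of Glul, Oat, Axin2, Slc1a4 or Rnf43, the last with 2 start sites. Shown here, 5′ to 3′ on the gene's strand, are the windows of the 3 genes that rose after CCl4 in the knockout and of Slc1a2, the gene with 2 matches. Capitals mark a match on either strand (CTTTGA, or TCAAAG where the match is on the other strand), and sequences in lower case throughout have none. The Lect2 match begins 31 bases before the start site and the Slc1a2 matches begin 206 and 77 bases before it. The RefSeq starts of Slc1a2, Cyp1a2 and Rnf43 lie inside the genes as GENCODE draws them. The windows of Slc1a2 and Rnf43 thus lie within the gene, and that of Cyp1a2 lies partly within it.
Slc1a4, chr11:20332714-20332963, minus strand: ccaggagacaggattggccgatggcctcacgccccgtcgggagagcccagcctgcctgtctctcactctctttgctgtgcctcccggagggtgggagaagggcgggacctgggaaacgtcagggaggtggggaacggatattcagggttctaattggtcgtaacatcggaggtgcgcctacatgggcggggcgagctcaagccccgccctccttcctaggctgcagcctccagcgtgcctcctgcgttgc
Axin2, chr11:108920099-108920348, plus strand: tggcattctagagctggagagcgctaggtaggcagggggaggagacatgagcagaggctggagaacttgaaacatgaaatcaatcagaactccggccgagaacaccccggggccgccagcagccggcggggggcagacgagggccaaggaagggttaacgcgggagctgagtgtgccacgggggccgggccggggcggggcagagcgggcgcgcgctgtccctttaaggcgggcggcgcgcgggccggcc
Lect2, chr13:56548539-56548788, minus strand: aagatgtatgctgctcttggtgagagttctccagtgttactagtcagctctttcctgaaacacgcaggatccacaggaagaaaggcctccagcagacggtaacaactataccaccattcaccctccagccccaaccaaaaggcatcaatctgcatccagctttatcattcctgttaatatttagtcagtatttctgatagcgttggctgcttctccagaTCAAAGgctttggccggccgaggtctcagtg
Slc1a2, chr2:102706188-102706437, plus strand: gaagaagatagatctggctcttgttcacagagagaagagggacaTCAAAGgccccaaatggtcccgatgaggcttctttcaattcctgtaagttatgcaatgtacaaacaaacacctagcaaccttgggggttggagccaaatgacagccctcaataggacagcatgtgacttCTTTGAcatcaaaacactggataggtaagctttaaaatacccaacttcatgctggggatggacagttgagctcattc

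After CCl4 in the knockout, Slc1a4, Axin2 and Lect2 rose by edgeR. It called 0 of the 9 genes lower, whereas DESeq2 called Slc1a2 lower (log2 -3.57, adjusted p = 0.0389), as did edgeR without Yap/Taz KO untreated replicate 2 (log2 -4.02, adjusted p = 0.0339). Slc1a4 alone rose in the wild type at the threshold used, which was a Benjamini-Hochberg adjusted p under 0.05 in edgeR's quasi-likelihood test over all 13721 genes. Slc1a4 was the 1 member called between the genotypes after CCl4. It was also the 1 member called for a larger CCl4 effect in the knockout, a call that was lost in 12 of 17 fits that left out a library. No member passed the threshold between the genotypes without CCl4. The classical pericentral enzyme gene Glul passed the threshold in no comparison.

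In the knockout, 3 of 9 members were called after CCl4, all 3 higher and with groups that did not overlap. There 19% of all tested genes were called, 12.1% higher and 6.96% lower, and 25.2% had groups that did not overlap. For the wild type the count was 1 of 9, higher and not overlapping, against 0.853% of genes called (0.576% higher, 0.277% lower) and 4.84% not overlapping. Between genotypes after CCl4 it was 1 of 9, higher and not overlapping, against 11.8% called (7.62% higher, 4.21% lower) and 18.1% not overlapping. For the difference of the CCl4 effects between genotypes it was 1 of 9, higher, against 1.09% called (0.794% higher, 0.299% lower). In untreated libraries edgeR called 0 of 9 members, as did DESeq2 and limma voom, with 1 member at an unadjusted p under 0.05; 0.933% of genes were called there (0.583% higher, 0.35% lower). At an unadjusted p under 0.05 by edgeR, in either direction, 5 of 9 members passed after CCl4 in the wild type and 4 of 9 in the knockout. Over all 13721 genes these counts were 2023 and 4151. The median log2 fold change of the 9 members was 0.77 after CCl4 in the knockout and 0.67 in the wild type, beside 0.01 and -0.01 over all genes. Between genotypes it was 0.09 after CCl4 and -0.69 without it, beside 0.04 and -0.01 over all genes. The value without CCl4 includes Yap/Taz KO untreated replicate 2, the lowest library of its group for 7 of the 9 members.

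**Figure D1:**
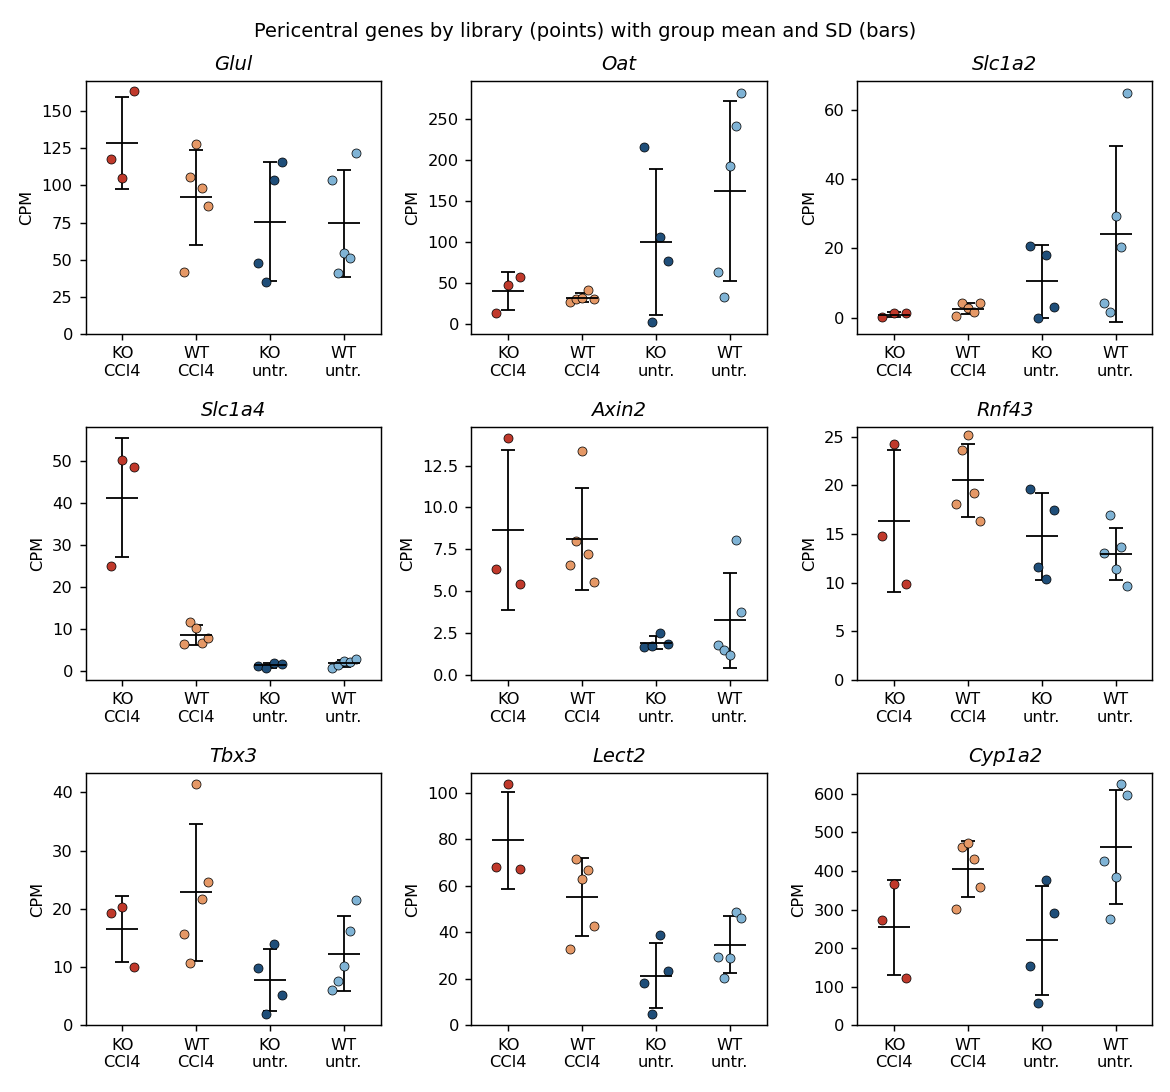
Level of each of the 9 genes in CPM (vertical axes, a scale per gene), with 1 point per library, a horizontal line at the group mean and bars of 1 SD, for Yap/Taz KO CCl4 (n = 3), WT CCl4 (n = 5), Yap/Taz KO untreated (n = 4) and WT untreated (n = 5). Slc1a4 steps up in the CCl4 groups and most in the knockout, where it reaches 24.9 to 50.3 CPM, and Oat and Slc1a2 spread widely in the untreated groups.

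Per kilobase of merged exons, which allows levels to be set between genes, the order changed with the group. In Yap/Taz KO CCl4 libraries the mean level was 126 ± 61.2 CPM per kb for Cyp1a2, 86.7 ± 22.7 for Lect2, 38.8 ± 9.35 for Glul, 17.1 ± 9.74 for Oat and 10.5 ± 3.61 for Slc1a4 (SD, n = 3). Tbx3, Rnf43 and Axin2 followed at 2.49 ± 0.85, 2.49 ± 1.12 and 1.57 ± 0.87 CPM per kb, and Slc1a2 was last at 0.0650 ± 0.048. In WT untreated libraries Cyp1a2 also led, at 229 ± 73.4 CPM per kb, followed by Oat at 69.1 ± 46.5, Lect2 at 37.8 ± 13.3 and Glul at 22.4 ± 10.8 (SD, n = 5). Rnf43 at 1.97 ± 0.41, Tbx3 at 1.85 ± 0.98 and Slc1a2 at 1.84 ± 1.94 CPM per kb came next, then Axin2 at 0.592 ± 0.52 and Slc1a4 at 0.483 ± 0.21. WT CCl4 libraries had Cyp1a2 at 201 ± 36.4, Lect2 at 60.2 ± 18.1, Glul at 27.7 ± 9.63 and Oat at 13.8 ± 2.21 CPM per kb, then Tbx3 at 3.44 ± 1.77, Rnf43 at 3.13 ± 0.58, Slc1a4 at 2.18 ± 0.59, Axin2 at 1.48 ± 0.55 and Slc1a2 at 0.195 ± 0.12 (SD, n = 5). Yap/Taz KO untreated libraries had Cyp1a2 at 109 ± 70.0, Oat at 42.7 ± 37.7, Lect2 at 23.3 ± 15.3 and Glul at 22.7 ± 12.1 CPM per kb, then Rnf43 at 2.25 ± 0.69, Tbx3 at 1.17 ± 0.80, Slc1a2 at 0.794 ± 0.79, Axin2 at 0.352 ± 0.073 and Slc1a4 at 0.342 ± 0.14 (SD, n = 4). Slc1a4 was thus last of the 9 in both untreated groups and the fifth in Yap/Taz KO CCl4 libraries. The spreads of neighbours in the Yap/Taz KO CCl4 and WT untreated orders overlapped within 1 SD, except for Cyp1a2 and Oat, and for Glul and Rnf43, in WT untreated libraries, and for Lect2 and Glul, Glul and Oat, Slc1a4 and Tbx3, and Axin2 and Slc1a2 in Yap/Taz KO CCl4 libraries. The merged length of Slc1a2, 13133 bases, pools all annotated isoforms and so lowers its value per kb.

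Slc1a4 (ENSMUSG00000020142, GRCm38 chromosome 11, 20302180 to 20332713) encodes ASCT1, a sodium-dependent exchanger of alanine, serine and cysteine. It stood at 24.9, 50.3 and 48.5 CPM in Yap/Taz KO CCl4 replicates 1 to 3, against 1.14, 0.685, 1.87 and 1.68 CPM in Yap/Taz KO untreated replicates 1 to 4. It stood at 6.36, 11.7, 10.3, 6.73 and 7.78 CPM in WT CCl4 replicates 1 to 5, against 0.706, 1.42, 2.32, 2.21 and 2.82 CPM in WT untreated replicates 1 to 5. The 3 knockout CCl4 libraries lay above every other library, and the 5 WT CCl4 libraries lay above every untreated library of either genotype. With CCl4 it rose 30.4-fold in the knockout (log2 4.93 ± 0.42 SE, adjusted p = 7.09e-06) and 4.44-fold in the wild type (log2 2.15 ± 0.34, adjusted p = 0.00545) by edgeR. Between Yap/Taz KO CCl4 and WT CCl4 it was 4.81-fold higher in the knockout (log2 2.27 ± 0.35, adjusted p = 0.000889). These 3 calls held with each of the 17 libraries left out in turn. Without Yap/Taz KO CCl4 replicate 3, the library with the highest macrophage sum, the log2 fold change was 4.80 in the knockout and 2.14 between genotypes, both still called.

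The CCl4 effect on Slc1a4 was larger in the knockout than in the wild type by 2.77 ± 0.51 on the log2 scale (adjusted p = 0.0316 by edgeR). This call kept its direction with each library left out, at 2.58 to 3.02, but was lost in 12 of those 17 fits. It held without Yap/Taz KO CCl4 replicate 1 or 2 or without WT untreated replicate 1, 2 or 3, and without any other library the adjusted p lay between 0.0509 and 0.0709. It was also lost with limma voom (adjusted p = 0.0958), with unscaled totals (0.0546), with the replicate number as a block (0.0691) and without both libraries with over 30% mitochondrial counts (0.0931). Untreated levels of Slc1a4 did not differ between the genotypes beyond the test's threshold (log2 -0.51, 95% interval -1.30 to 0.28).

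Other liver cells moved with the knockout result. All 18 macrophage markers, 17 of 18 endothelial markers and 11 of 12 tested stellate and myofibroblast markers rose after CCl4 in Yap/Taz KO samples. Of all tested genes, 12.1% were called higher in that comparison. In WT samples edgeR called 2 of the 18 endothelial, 1 of the 12 stellate and myofibroblast and 0 of the 18 macrophage markers. At an unadjusted p under 0.05 by edgeR, 16, 7 and 9 of them passed there, beside 2023 of the 13721 genes tested. The list medians in WT samples were 2.55, 1.97 and 2.11 on the log2 scale. For the difference of the CCl4 effects edgeR called 4 of the 18 macrophage markers, all higher, beside 1.09% of all tested genes. It called 0 of the 18 endothelial and 0 of the 12 stellate and myofibroblast markers for that difference. The part of these cells in the levels of Slc1a4, Axin2 and Lect2 was not tested. Among the 3 Yap/Taz KO CCl4 libraries, the one with a macrophage sum of 4812 CPM had 48.5 CPM of Slc1a4 and the one with 194 CPM had 24.9 CPM, while the library at 533 CPM had the highest Slc1a4, 50.3 CPM. In a sorted bulk sample, fewer cells expressing a gene and less RNA per cell cannot be told apart.

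**Figure D2:**
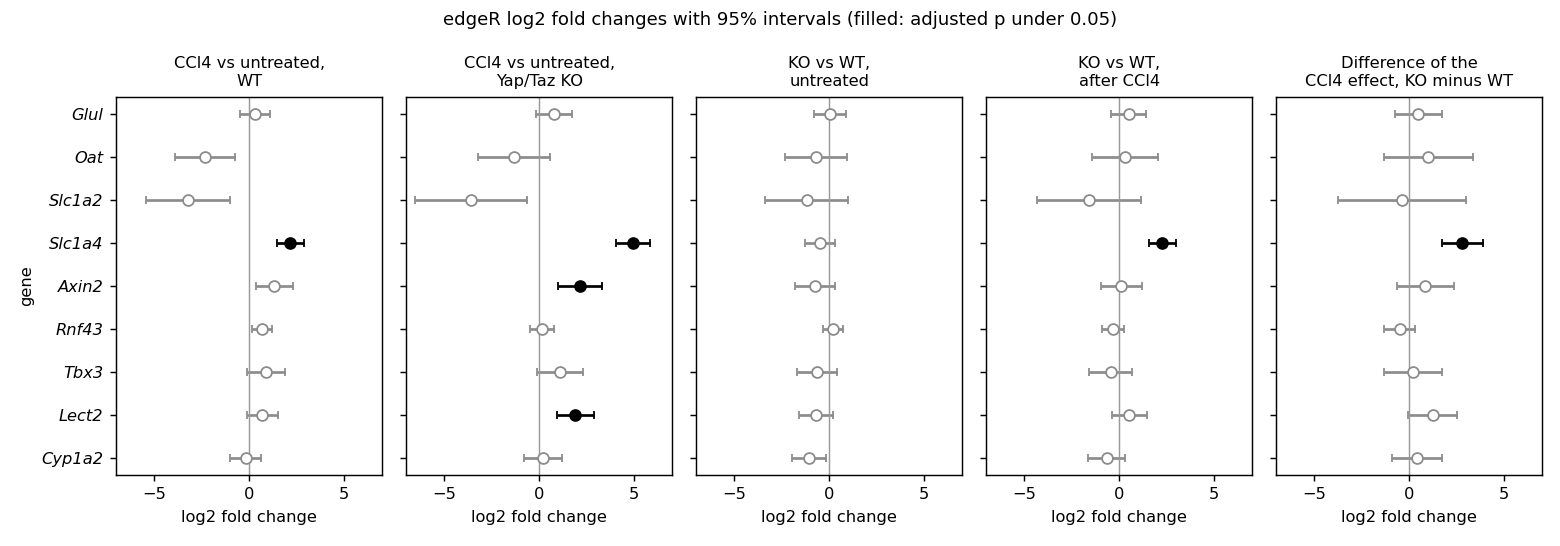
Log2 fold changes from edgeR (horizontal axes) with 95% intervals (bars) for the 9 genes in 4 comparisons between groups and for the difference of the CCl4 effects, with filled points where the adjusted p was under 0.05. Slc1a4 is filled in every panel but the untreated one, and Axin2 and Lect2 are filled after CCl4 in the knockout.

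Axin2 (ENSMUSG00000000142, chromosome 11, 108920349 to 108950783), the scaffold of the complex that marks beta-catenin for destruction, was low in most untreated libraries. It stood at 6.34, 14.1 and 5.43 CPM in Yap/Taz KO CCl4 replicates 1 to 3, against 1.67, 1.71, 2.53 and 1.84 CPM in Yap/Taz KO untreated replicates 1 to 4. The WT CCl4 libraries had 6.55, 8.0, 13.3, 7.22 and 5.53 CPM, against 1.81, 1.5, 1.19, 8.03 and 3.76 CPM in WT untreated libraries. The knockout groups did not overlap. In the wild type, 1 untreated library, replicate 4 at 8.03 CPM, lay within the CCl4 range and the other 4 lay below it. Axin2 rose 4.45-fold in the knockout (log2 2.15 ± 0.55, adjusted p = 0.0111 by edgeR). Without Yap/Taz KO CCl4 replicate 2, its highest library, the log2 fold change was 1.59 and the call was lost (adjusted p = 0.0779). The WT log2 fold change was 1.31 ± 0.46, which did not pass (adjusted p = 0.184). Without WT untreated replicate 4 it was 1.98 and passed (adjusted p = 0.0260).

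The CCl4 levels of Axin2 were close in both genotypes, with means of 8.63 ± 4.78 CPM in Yap/Taz KO CCl4 (SD, n = 3) and 8.13 ± 3.05 CPM in WT CCl4 libraries (SD, n = 5). Their log2 ratio was 0.09, with a 95% interval of -0.98 to 1.17. The difference between its CCl4 effects in the 2 genotypes was 0.84 (95% interval -0.65 to 2.34) and was not called (adjusted p = 0.596 by edgeR). So a rise called in the knockout and not in the wild type was not shown to differ between them.

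Rnf43 (ENSMUSG00000034177, chromosome 11, 87662722 to 87735539), a ubiquitin ligase that removes Frizzled receptors from the cell surface, moved less. It stood at 14.8, 24.3 and 9.85 CPM in Yap/Taz KO CCl4 libraries, against 19.7, 11.6, 10.3 and 17.4 CPM in Yap/Taz KO untreated libraries. The WT CCl4 libraries had 18.1, 23.7, 25.2, 19.2 and 16.3 CPM, against 13.0, 16.9, 11.4, 13.7 and 9.68 CPM in WT untreated libraries. The knockout groups overlapped throughout, and in the wild type 1 CCl4 library, replicate 5 at 16.3 CPM, lay below the highest untreated library at 16.9 CPM. The log2 fold change was 0.15 ± 0.29 in the knockout (adjusted p = 0.796) and 0.67 ± 0.24 in the wild type (adjusted p = 0.203), neither called by edgeR. The knockout interval, -0.47 to 0.76, did not reach the 2.15 estimated for Axin2, the other feedback gene of the pathway. Of the 9 genes it had the lowest coefficient of variation in WT untreated libraries, 21.0%.

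Lect2 (ENSMUSG00000021539, chromosome 13, 56542464 to 56548502) encodes a protein that hepatocytes secrete into the blood. It stood at 67.9, 104 and 67.4 CPM in Yap/Taz KO CCl4 libraries, against 18.3, 5.05, 39.1 and 23.4 CPM in Yap/Taz KO untreated libraries. It stood at 32.8, 71.4, 62.9, 66.7 and 42.8 CPM in WT CCl4 libraries, against 29.4, 20.5, 29.0, 48.9 and 46.0 CPM in WT untreated libraries. All 3 knockout CCl4 libraries lay above all 4 untreated ones, whereas the WT groups overlapped. Lect2 rose 3.71-fold in the knockout (log2 1.89 ± 0.47, adjusted p = 0.00892 by edgeR). The call held with each library left out (adjusted p at most 0.0390), but not when only the 2 knockout groups were fitted (log2 1.91, adjusted p = 0.0694). The WT log2 fold change was 0.67 ± 0.39 (adjusted p = 0.447). The 2 CCl4 effects differed by 1.22 (95% interval -0.05 to 2.49), which was not called (adjusted p = 0.314).

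Tbx3 (ENSMUSG00000018604, chromosome 5, 119670669 to 119684724), a T-box transcription factor, had 19.3, 20.2 and 10.003 CPM in Yap/Taz KO CCl4 libraries, against 9.84, 1.88, 14.0 and 5.19 CPM in Yap/Taz KO untreated libraries. WT CCl4 libraries had 15.7, 10.7, 41.4, 21.6 and 24.5 CPM, against 5.95, 7.59, 10.1, 16.1 and 21.5 CPM in WT untreated libraries. The groups overlapped in both genotypes. Its log2 fold change with CCl4 was 1.08 ± 0.56 in the knockout (adjusted p = 0.210) and 0.90 ± 0.47 in the wild type (adjusted p = 0.399), neither called by edgeR. Both 95% intervals reached from just under 0 to about 2, at -0.10 to 2.27 and -0.10 to 1.89.

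Glul (ENSMUSG00000026473, chromosome 1, 153899944 to 153909723) encodes glutamine synthetase, which captures ammonia in the last ring of hepatocytes before the central vein. It stood at 118, 105 and 164 CPM in Yap/Taz KO CCl4 libraries, against 48.0, 34.7, 103 and 116 CPM in Yap/Taz KO untreated libraries. It stood at 41.5, 106, 128, 98.5 and 86.2 CPM in WT CCl4 libraries, against 104, 41.3, 54.5, 50.9 and 122 CPM in WT untreated libraries. In both untreated groups the libraries split into a low set of 34.7 to 54.5 CPM and a high set of 103 to 122 CPM, and the CCl4 groups overlapped with them. The log2 fold change with CCl4 was 0.77 ± 0.45 in the knockout (adjusted p = 0.272) and 0.30 ± 0.37 in the wild type (adjusted p = 0.766), neither called by edgeR. Without CCl4 the knockout and the wild type had a log2 ratio of 0.02 (95% interval -0.82 to 0.86), and after CCl4 of 0.49 (95% interval -0.41 to 1.39).

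Oat (ENSMUSG00000030934, chromosome 7, 132557478 to 132576398) encodes ornithine aminotransferase, the mitochondrial enzyme that feeds ornithine into glutamate. It stood at 14.4, 48.4 and 58.2 CPM in Yap/Taz KO CCl4 libraries, against 217, 2.48, 106 and 77.5 CPM in Yap/Taz KO untreated libraries. It stood at 27.4, 31.5, 32.0, 41.4 and 31.0 CPM in WT CCl4 libraries, against 64.0, 33.4, 193, 242 and 283 CPM in WT untreated libraries. All 8 CCl4 libraries lay at or below 58.2 CPM, and 7 of the 9 untreated libraries lay above that. The exceptions were WT untreated replicate 2 and Yap/Taz KO untreated replicate 2. The WT CCl4 libraries were close to each other, with a coefficient of variation of 15.9%, against 67.3% in WT untreated libraries. The log2 fold change was -1.32 ± 0.89 in the knockout (adjusted p = 0.358) and -2.32 ± 0.75 in the wild type (adjusted p = 0.157), neither called by edgeR. Without Yap/Taz KO untreated replicate 2, which enters the shared estimate of spread, the WT value was -2.32 and passed (adjusted p = 0.0474).

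Slc1a2 (ENSMUSG00000005089, chromosome 2, 102658659 to 102790784) encodes GLT-1, a glutamate transporter best known from brain and carried in liver by the pericentral hepatocytes. It had 0.120, 1.18 and 1.26 CPM in Yap/Taz KO CCl4 libraries, against 20.6, 0, 18.1 and 3.02 CPM in Yap/Taz KO untreated libraries. It had 0.499, 4.16, 2.64, 1.46 and 4.06 CPM in WT CCl4 libraries, against 4.33, 1.67, 29.3, 20.3 and 64.9 CPM in WT untreated libraries. The 0 in Yap/Taz KO untreated replicate 2 allows a level of up to 0.257 CPM, the value of 3 counts there, for counting error only. Again 7 of 9 untreated libraries lay above the WT CCl4 maximum of 4.16 CPM or the knockout CCl4 maximum of 1.26 CPM for their genotype, with the same 2 libraries as exceptions. The log2 fold change was -3.61 ± 1.39 in the knockout (adjusted p = 0.0840) and -3.23 ± 1.04 in the wild type (adjusted p = 0.157), neither called by edgeR. In the knockout it passed with DESeq2 (log2 -3.57, adjusted p = 0.0389) and without Yap/Taz KO untreated replicate 2 (log2 -4.02, adjusted p = 0.0339).

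Slc1a2 and Oat varied together from library to library. Of 7304 tested genes with a mean of at least 10 CPM, each was the gene closest to the other over the 17 libraries, a comparison made after their values were seen. The root mean square difference of their centred log2(CPM + 0.5) values was 0.92, where the median gene lay at 1.63 from Oat and 1.98 from Slc1a2. The next closest to Slc1a2 were Npr2, a natriuretic peptide receptor, at 1.20 and Cyp2c37, a pericentral P450 gene, at 1.40. Oat and Slc1a2 thus had their highest level, 283 and 64.9 CPM, in WT untreated replicate 5 and their lowest, 2.48 and 0 CPM, in Yap/Taz KO untreated replicate 2. Slc1a4, the other transporter of the same gene family, was low in every untreated library and higher after CCl4. Among the untreated libraries alone, Slc1a4 was also lowest in Yap/Taz KO untreated replicate 2 (0.685 CPM) and highest in WT untreated replicate 5 (2.82 CPM). WT untreated replicate 5 had the lowest TMM factor of the 17 libraries, 0.698, which raises its CPM. Of its 19841799 counts, 3914 were Oat and 39 Slc1a4, against 3283 and 30 of 13253166 in WT untreated replicate 4. The top rank of Oat and Slc1a4 in replicate 5 thus depends on the scaling.

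**Figure D3:**
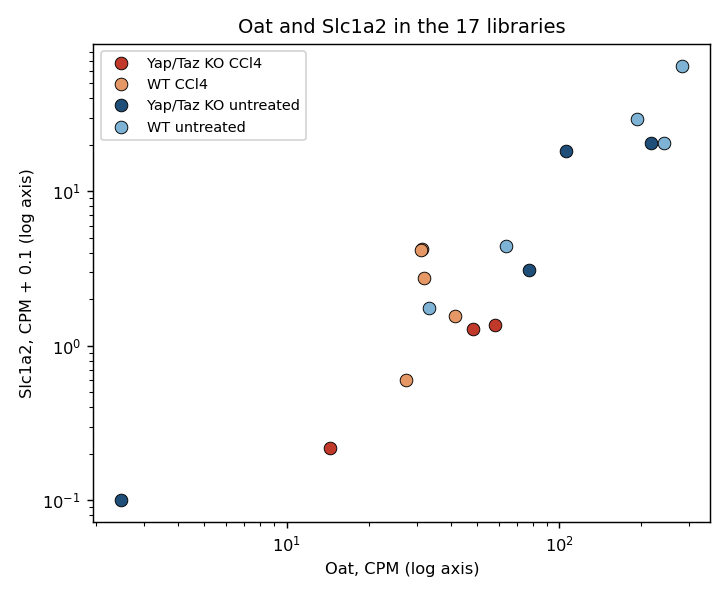
Slc1a2 (vertical axis, CPM + 0.1, log scale) against Oat (horizontal axis, CPM, log scale) in the 17 libraries, coloured by group. Untreated libraries reach from 2.48 to 283 CPM of Oat along a common diagonal, and the CCl4 libraries lie at or below 58.2 CPM of Oat and 4.16 CPM of Slc1a2.

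Cyp1a2 (ENSMUSG00000032310, chromosome 9, 57676937 to 57683703) encodes a P450 enzyme that metabolizes caffeine and aromatic amines and is also induced through the aryl hydrocarbon receptor. It stood at 274, 366 and 122 CPM in Yap/Taz KO CCl4 libraries, against 155, 58.2, 375 and 292 CPM in Yap/Taz KO untreated libraries. It stood at 301, 462, 472, 431 and 358 CPM in WT CCl4 libraries, against 426, 276, 383, 626 and 597 CPM in WT untreated libraries. The groups overlapped in every comparison. Its log2 fold change with CCl4 was 0.21 ± 0.47 in the knockout (adjusted p = 0.827) and -0.19 ± 0.39 in the wild type (adjusted p = 0.873) by edgeR. Among untreated libraries it was the 1 member with an unadjusted p under 0.05 between genotypes, with a log2 fold change of -1.07 ± 0.42 (adjusted p = 0.403 by edgeR). Without Yap/Taz KO untreated replicate 2, the lowest of its group at 58.2 CPM, this value was -0.75. After CCl4 the log2 fold change between genotypes was -0.67 (95% interval -1.64 to 0.30).

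Without CCl4, then, the 9 genes gave log2 fold changes between the knockout and the wild type of -1.20 for Slc1a2 to 0.19 for Rnf43, with groups that overlapped for all 9 (3.64% of all genes had groups that did not). For 7 of the 9 the value was below 0. Without Yap/Taz KO untreated replicate 2, the values of Oat, Slc1a4 and Tbx3 were closer to 0, at -0.29, -0.31 and -0.34. Those of Lect2 and Cyp1a2 were then -0.37 and -0.75, also closer to 0. Intervals of the transporter and ornithine genes were wide: that of Slc1a2 ran from -3.37 to 0.97 and that of Oat from -2.31 to 0.92. Reads from overlapping genes cannot be told apart where the strand setting of the counting is not known. This touches Glul (Mir8114 and Teddm2), Oat (Fgfr2), Slc1a2 (Gm13872), Axin2 (Gm11670), Rnf43 (1110028F11Rik and Gm25968) and Tbx3 (Tbx3os1).

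Some libraries were low for most members at once. Yap/Taz KO untreated replicate 2 was the lowest of its 4 libraries for 7 of the 9 genes (Glul, Oat, Slc1a2, Slc1a4, Tbx3, Lect2 and Cyp1a2), whereas it was lowest for 32% of all tested genes. It was also lowest for 20 of 23 other pericentral genes and for 5 of 20 periportal genes. Cyp2e1, the pericentral P450 that activates CCl4, had 127 CPM there, against 1114 to 2433 CPM in the other 3 libraries of the group. Cyp2f2 and Hal, a periportal P450 and histidine ammonia-lyase, had 3062 and 779 CPM there, above the 2112 and 380 CPM of the highest of those 3. Pck1, a periportal gene of glucose synthesis, had its lowest level of the group there, 3278 CPM against 4282 to 5081 CPM. These 4 genes were chosen after their values were seen. WT CCl4 replicate 1 was the lowest of 5 for 6 of 9 members and 15 of 23 other pericentral genes, but for 1 of 20 periportal genes and 17.6% of all genes. WT untreated replicate 2 was the lowest of 5 for 5 of 9 members, 14 of 23 pericentral genes, 3 of 20 periportal genes and 17.9% of all genes. Axin2 and Rnf43 were lowest in none of these 3 libraries, while of 9 other beta-catenin/TCF target genes 5 were lowest in Yap/Taz KO untreated replicate 2, 3 in WT CCl4 replicate 1 and 2 in WT untreated replicate 2.

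**Figure D4:**
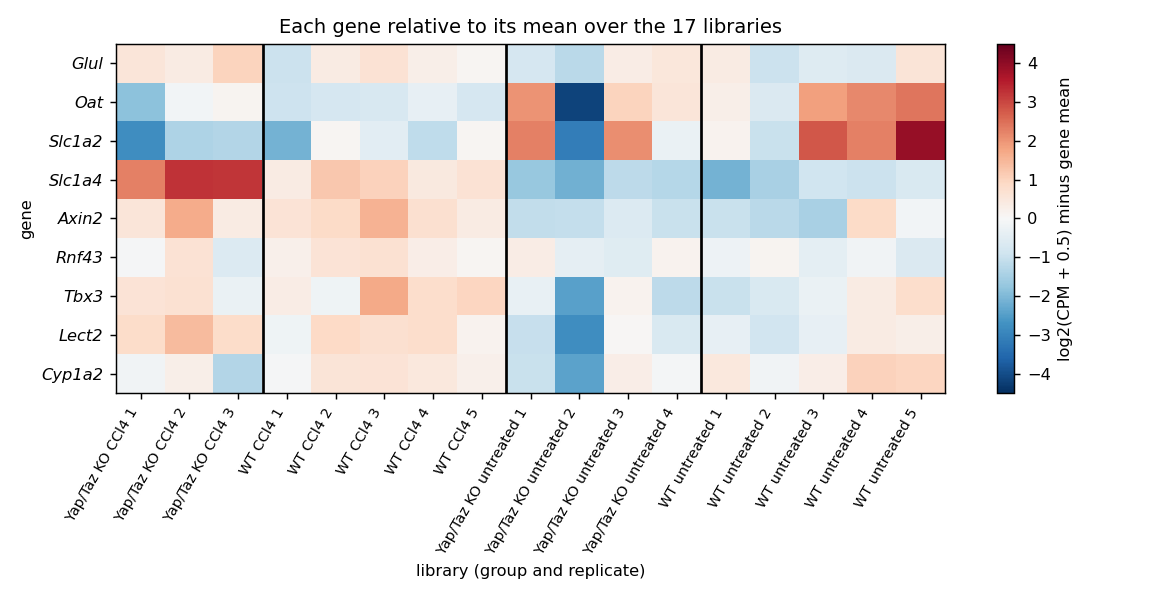
Level of each gene in each library as log2(CPM + 0.5) minus the mean of that gene over the 17 libraries (colour scale), with libraries in columns by group and genes in rows. The column of Yap/Taz KO untreated replicate 2 lies below the gene mean (blue) for all 9 genes, of which 7 were lowest of their group there. The Slc1a4 row is darkest red in Yap/Taz KO CCl4 libraries.

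Genes with the most similar pattern over the 17 libraries were named for 3 members by the same root mean square difference. For Slc1a4 they were Gstm3, a mu-class glutathione transferase, at 0.58, Golm1, a Golgi membrane protein, at 0.60 and Pygb, a glycogen phosphorylase, at 0.66, where the median gene lay at 1.77. Pygb stood at 48.5 ± 14.7 CPM in Yap/Taz KO CCl4, 9.16 ± 2.92 in WT CCl4, 1.74 ± 0.74 in Yap/Taz KO untreated and 2.82 ± 3.64 CPM in WT untreated libraries, levels much like those of Slc1a4. For Axin2 they were Rtn4 at 0.52, Raet1d at 0.57 and Anxa5 at 0.59, where the median gene lay at 1.07. For Glul they were Serpina3m at 0.44, Tmed3 at 0.44 and Synj1 at 0.46, where the median gene lay at 0.78. Lect2 was added after its values were seen. Its closest genes were Gulo at 0.37, Ahr at 0.50 and Rtn4 at 0.55, where the median gene lay at 1.06. Gulo and Ahr are on the list of other pericentral genes, and Rtn4 was also the gene closest to Axin2.

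Other genes of the pathway and of the zones were followed in lists. Over all 13721 genes, edgeR called 19% after CCl4 in the knockout (12.1% higher, 6.96% lower) and 0.853% in the wild type. Between genotypes it called 11.8% after CCl4 (7.62% higher, 4.21% lower) and 0.933% without it. Its test of the difference of the CCl4 effects called 1 gene of these lists, a periportal gene that was lower. For the other listed genes, a change called in 1 genotype alone was not shown to differ between them. Of 9 tested beta-catenin/TCF target genes outside the members, 4 rose after CCl4 in the knockout by edgeR, with a list median of 1.72: Ccnd1, Tcf7, Tnfrsf19 and Nkd1, the last named after its values were seen. The cyclin gene Ccnd1 rose by 2.68 ± 0.48 on the log2 scale (adjusted p = 0.00130) and Tcf7, a TCF factor, by 1.88 ± 0.34 (adjusted p = 0.00143). Without Yap/Taz KO CCl4 replicate 3, or without Yap/Taz KO untreated replicate 2, 2 of the 9 rose. Tnfrsf19 was the 1 of 9 called in the wild type, at 2.13 ± 0.48 (adjusted p = 0.0467), and this was lost in 11 of 17 fits that left out a library, with an adjusted p of up to 0.124 without WT untreated replicate 2. Of 28 Wnt receptors and transducers, 2 fell in the knockout by edgeR and by DESeq2, which also called 1 higher, as edgeR did without Yap/Taz KO CCl4 replicate 3; edgeR called 0 in the wild type (3 at an unadjusted p under 0.05, 1 by DESeq2 and 0 by limma voom). The 2 that fell were Tcf7l1, a TCF factor, at -0.99 ± 0.26 (adjusted p = 0.0134) and Tle1, a corepressor, at -0.56 ± 0.18 (adjusted p = 0.0332). Without Yap/Taz KO CCl4 replicate 2 the call of Tcf7l1 was lost (-0.84, adjusted p = 0.0686), and that of Tle1 was lost in 4 of 17 such fits, with an adjusted p of up to 0.105 without Yap/Taz KO CCl4 replicate 3. Of 17 Wnt and R-spondin ligands, processing genes and secreted inhibitors, 4 were high enough to test. Of these, Wls, which carries Wnt proteins to the cell surface, rose by 5.49 ± 0.96 in the knockout (adjusted p = 0.00111) and Wnt2 by 4.97 ± 1.35 (adjusted p = 0.0160). Wnt2 is known from liver endothelial cells, whose markers summed to 190 to 1075 CPM in these libraries, and without Yap/Taz KO CCl4 replicate 3 its value was 3.03 and was not called (adjusted p = 0.165), while Wls was at 3.53 and still called.

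Among the 23 other pericentral genes, 4 were higher and 1 was lower after CCl4 in the knockout, and 1 was higher in the wild type. Between genotypes after CCl4, 1 of the 23 was higher and 6 were lower in the knockout, and 0 and 1 without Yap/Taz KO CCl4 replicate 3. In that comparison 0 of 20 periportal genes were higher and 6 were lower, and 1 and 3 without that library. The list medians there were -0.60 for the pericentral and -0.91 for the periportal genes. Gstm3 rose by 4.08 ± 0.55 in the knockout (adjusted p = 0.000326), as did Gstm1 and, named after their values were seen, Cyp7a1 and Gulo, the genes of bile acid and vitamin C synthesis enzymes. Cyp27a1, another bile acid enzyme gene, fell by 1.14 (SE 0.27, adjusted p = 0.00658). Gstm3 was also the gene that rose in the wild type, at 1.94 ± 0.44 (adjusted p = 0.0497), a call lost in 12 of 17 fits that left out a library (adjusted p up to 0.128). Aldh1a1, a retinal dehydrogenase gene, was lower in the knockout, with a log2 fold change of -1.53 ± 0.27 without CCl4 (adjusted p = 0.00596) and of -1.89 ± 0.30 after it (adjusted p = 0.00127). Of 20 periportal genes, 13 fell after CCl4 in the knockout by edgeR (9 fell without Yap/Taz KO CCl4 replicate 3), with a list median of -1.0. Among them were Cyp2f2 at -2.45 ± 0.45 (adjusted p = 0.00147) and Hal at -1.57 ± 0.30 (adjusted p = 0.00192). For the wild type edgeR, DESeq2 and limma voom each called 0 of 20, with 3 at an unadjusted p under 0.05. For the difference of the CCl4 effects edgeR called 1 of the 20, lower, and 0 without Yap/Taz KO CCl4 replicate 3. There DESeq2 called 4 lower and limma voom 0.

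Genes of glutamine, glutamate and ornithine metabolism, the pathway of Glul and Oat, with their transporters, moved in both directions: of 16 tested, 3 rose and 5 fell after CCl4 in the knockout, and 1 rose and 5 fell without Yap/Taz KO CCl4 replicate 3. Gls2, the liver-type glutaminase that works opposite to Glul and is also on the periportal list, fell by 1.73 on the log2 scale (SE 0.37, adjusted p = 0.00364) and Otc, the urea cycle enzyme that uses ornithine, fell by 1.23 (SE 0.29, adjusted p = 0.00657). The aryl hydrocarbon receptor also regulates Cyp1a2, and its list held target genes and the receptor gene Ahr itself. Of 4 tested genes on this list, 2 rose after CCl4 in the knockout by edgeR: Nqo1 by 2.69 ± 0.54 (adjusted p = 0.00263) and Tiparp by 1.59 ± 0.37 (adjusted p = 0.00611). Without Yap/Taz KO CCl4 replicate 3, Tiparp was not called (0.83, adjusted p = 0.0791). After CCl4 in the wild type, edgeR, DESeq2 and limma voom each called 0 of the 4, with 0 at an unadjusted p under 0.05.

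**Figure D5:**
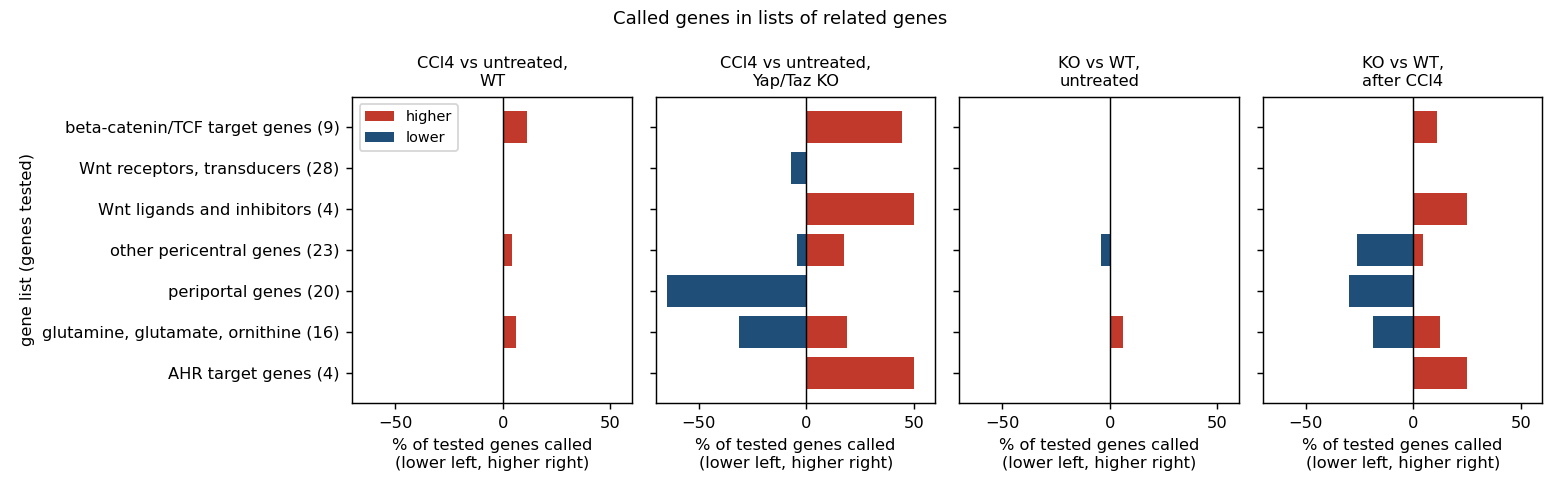
Share of the tested genes of 7 lists that were called lower (bars to the left) or higher (bars to the right), in percent, in 4 comparisons between groups, with the number of tested genes beside each list name. Calls gather in the comparison of CCl4 with untreated in the knockout, where 13 of 20 periportal genes were lower and 4 of 9 beta-catenin/TCF target genes were higher. Calls over all 13721 tested genes gather there too, at 19% (12.1% higher, 6.96% lower). The shares were 0.853% after CCl4 in the wild type, 0.933% between untreated genotypes and 11.8% between genotypes after CCl4.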

How the data were processed

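The authors deposited a table of whole-number counts per gene with 1 column per library. Per the submitters' processing notes, STAR 2.4.1d and the build mm10 were used, and FastQC, DESeq2, edgeR and limma are named. The counting tool, annotation and strand setting were not given in the sources used here. Per the labels' protocols, the RNA kit was Qiagen MicroRNEasy and the library kit NEBNext Ultra II.

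The deposited counts of all 17 libraries entered 1 model in edgeR 4.0.16 (R 4.3.3), with the 4 groups as its terms. The filter was filterByExpr (minimum count 10, minimum total 15) and the scaling TMM. Contrasts were tested by the robust quasi-likelihood F test, with p-values adjusted by Benjamini and Hochberg over the 13721 genes kept and called under 0.05. The error given with a log2 fold change is its standard error, obtained from F, and intervals are 95% intervals built on it. Levels are CPM of TMM-scaled totals, and marker sums are CPM of unscaled totals. Positions and exon lengths come from GENCODE M21 (GRCm38) and promoter windows from RefSeq (GRCm38.p6). The steps were tested on simulated data. Columns of the same group were checked for a library deposited under 2 names, and the lowest chi-square per gene was 23.4 over 29 pairs.

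The members and the gene lists were chosen with earlier results of these data known, and lists are described by counts and medians, with no test of the list. Named genes were the members, Yap1 and Wwtr1, up to 3 genes per list and comparison with the smallest adjusted p, and the 3 genes of mean CPM at least 10 closest to Glul, Axin2 and Slc1a4. Alternatives were RLE scaling and unscaled totals, no filter, a CPM-based filter, DESeq2 1.42.0, limma voom (3.58.1), a fit of the compared groups alone, the replicate number as a block, and leaving out each library. Leaving out both libraries with over 30% mitochondrial counts was added after the data were seen. No library was left out of the reported values.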

Additional observations from a re-analysis of the deposited data

Results flagged for a closer look

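The CCl4 effect on Slc1a4 differed between the genotypes: its log2 fold change with CCl4 was 4.93 in the knockout and 2.15 in the wild type, a difference of 2.77 that passed edgeR's test of the difference itself (adjusted p = 0.0316). The call was lost in 12 of 17 fits that left out a library, with limma voom (adjusted p = 0.0958), with unscaled totals (0.0546), with the replicate number as a block (0.0691) and without both libraries with over 30% mitochondrial counts (0.0931). Slc1a4 was higher after CCl4 in 3 of 3 knockout and 5 of 5 WT libraries than in any untreated library of their genotype. Among 27 groups of 4 or 5 libraries, 3 for each of the 9 genes, no library stood apart from the others of its group by Dixon's test, where chance would set about 1 in 20 groups apart.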

How the results depend on the processing

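The labels say that replicate numbers are identifiers and pair no libraries, and residuals of same-numbered libraries correlated at -0.302 to 0.231 (median -0.0394 over 22 pairs); 2 of 17 libraries correlated best with their own number. With the replicate number as a block, genes called were 49 after CCl4 in the wild type, 867 between genotypes after CCl4 and 3 for the difference of CCl4 effects, where 0 members were called (Slc1a4 2.69, adjusted p = 0.0691), and Tbx3 between genotypes after CCl4 was 0.012. Genes called after CCl4 in the wild type were 117, and 651 with unscaled totals (94.8% higher, against 67.5%), 494 with DESeq2, 184 with only the compared groups and 187 without both libraries rich in mitochondrial counts. In the knockout 2610 were called, and 1312 with only the compared groups. Untreated knockout against wild type gave 128, and 328 with DESeq2; after CCl4 it gave 1622, and 1075 with only the compared groups and 555 without the mitochondria-rich pair. The difference of CCl4 effects gave 150, and 28 with unscaled totals, 33 without a filter, 783 with DESeq2, 9 with limma voom and 9 without that pair; 0 members were called there with unscaled totals, limma voom or that pair left out. A fit of the compared groups alone was not possible for it. Unscaled totals moved the median of all genes to 0.38 in the wild type, 0.20 in the knockout, 0.14 between untreated genotypes and -0.16 for the difference, and the share of called genes that were higher to 83.6% from 63.4% in the knockout, 74.2% from 62.5% between untreated genotypes and 60.7% from 72.7% for the difference; Cyp1a2 in the wild type was then 0.19 and Tbx3 in the difference -0.013. Glul between untreated genotypes was -0.023 with limma voom, and Oat between genotypes after CCl4 was -0.050 without the mitochondria-rich pair. Leaving out each library gave 63 to 179 genes in the wild type, 1666 to 3079 in the knockout, 89 to 152 between untreated genotypes, 418 to 2216 after CCl4 and 0 to 867 for the difference, with 1 to 2, 2 to 4, 0, 1 and 0 to 1 members called. Uncalled log2 fold changes that changed sign ran from -0.26 to 0.41 for Rnf43 and -0.15 to 0.60 for Cyp1a2 after CCl4 in the knockout, -0.26 to 0.27 for Glul between untreated genotypes, -0.051 to 0.70 for Oat and -0.47 to 0.34 for Axin2 between genotypes after CCl4, and -1.17 to 0.18 for Slc1a2 and -0.13 to 0.63 for Tbx3 in the difference. The cause of these changes was not tested. No called member changed sign under any of these settings. Depth limits Slc1a2 most in Yap/Taz KO CCl4 replicate 1, with 2 counts, and Yap/Taz KO untreated replicate 2, with 0.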
